A study of Mus musculus with 9 samples.

Results

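Uhrf1, its paralogue Uhrf2, the DNA methyltransferase genes Dnmt1, Dnmt3a and Dnmt3b, and the TET dioxygenase genes Tet1, Tet2 and Tet3 were followed across RNA-seq libraries of the newborn mouse heart. The 8 genes were found by symbol among the 14479 genes of the expression matrix, and all 8 had a mean of at least 1 FPKM (fragments per length of transcript and size of library, a level that can be compared between genes), as did 13249 genes in all. The set was chosen by a measured value and by function: Uhrf1 was lower after resection than after sham surgery in these libraries, and the other 7 encode its paralogue and the enzymes that write or oxidise the same mark. For the 8 genes the contrast of resection with sham is therefore a description, with no test, and tests are given for the other contrasts only, which share the resection or the sham libraries with it.

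The libraries were made from neonatal CD-1 mice operated on postnatal day 1 and killed on postnatal day 2, with 3 libraries in each of 3 groups. One group had ventricular apical resection together with left vagotomy, the cutting of the left vagus nerve, which carries parasympathetic fibres to the heart. Another had apical resection alone, in which the tip of the ventricle is cut off, and the control group had sham surgery. All groups had surgery, no group carried an engineered allele, and RNA came from the lower part of the ventricular apex. The labels do not say whether a library is 1 pup or a pool, and they do not give sex or litter.

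DNA methylation is copied onto each new strand after replication. UHRF1 binds hemimethylated CpG sites and histone H3 and brings DNMT1, the maintenance methyltransferase, to them, whereas DNMT3A and DNMT3B set methylation at new sites and the TET enzymes oxidise 5-methylcytosine on the way to its removal. UHRF1 and DNMT1 belong to the S phase machinery, and heart muscle cells of the newborn mouse still divide for some days before most of them leave the cell cycle.

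The promoters of Uhrf1 and Dnmt1 are shown because these were the genes of the 8 whose libraries separated most clearly between groups, and because both are genes of S phase, for which E2F factors are known regulators. RefSeq windows from 250 bases before to 50 bases after a gene start (GRCm38.p6) were matched by symbol for 8 of 8 genes, with 13 windows in all. They were searched on both strands for the E2F consensus words TTTCCCGC, TTTCGCGC, TTTGCCGC and TTTGGCGC, which overlap no other motif searched. Matches are in capitals, other bases in lower case, each sequence runs 5′ to 3′ on the strand of the gene, and the Uhrf1 window is chr17:56304063-56304362 on the plus strand and the Dnmt1 window chr9:20952574-20952873 on the minus strand.
Uhrf1: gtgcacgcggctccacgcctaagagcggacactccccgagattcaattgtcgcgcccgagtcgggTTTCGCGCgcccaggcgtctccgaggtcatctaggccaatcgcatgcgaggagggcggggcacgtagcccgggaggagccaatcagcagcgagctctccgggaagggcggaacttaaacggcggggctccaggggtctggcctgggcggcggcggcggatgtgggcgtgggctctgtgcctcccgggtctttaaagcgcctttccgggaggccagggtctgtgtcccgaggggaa
Dnmt1: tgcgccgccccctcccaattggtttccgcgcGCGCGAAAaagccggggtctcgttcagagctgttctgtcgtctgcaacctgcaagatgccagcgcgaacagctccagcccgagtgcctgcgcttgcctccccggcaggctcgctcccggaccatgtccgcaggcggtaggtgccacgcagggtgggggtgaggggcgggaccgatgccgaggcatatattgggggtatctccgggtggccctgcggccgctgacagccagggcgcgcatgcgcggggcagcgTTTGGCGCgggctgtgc
The Uhrf1 window held TTTCGCGC, starting 185 bases before the RefSeq start of that window. The Dnmt1 window held GCGCGAAA, the reverse complement of the same word, starting 219 bases before its own RefSeq start. It also held TTTGGCGC, starting 33 bases after that start. Both windows lie inside the locus of their gene, downstream of its 5′ end. The windows at the 5′ ends, chr17:56303087-56303386 for Uhrf1 and chr9:20959839-20960138 for Dnmt1, held 0 matches. Each of the 2 windows printed above held 33 CpG sites, and those at the 5′ ends held 12 for Uhrf1 and 2 for Dnmt1. No word was found in the other windows of these 2 genes or in any window of the other 6 genes, which says only that these letters are not in those stretches. A word was present in 2.26% of all 32851 windows, in 3.84% of the 11869 windows of tested genes and in 37.0% of the 27 windows of a DNA replication list. A match is a description of the letters and shows no binding.

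The median level over the whole matrix was similar between libraries, at 7.52 to 8.29 FPKM, while the correlation of 2 libraries across genes was 0.746 to 0.951. The highest level in every library was that of mt-Ta. It ranged over 39861 to 74442 FPKM after resection with vagotomy, 120254 to 1026210 FPKM after resection and 227081 to 511102 FPKM in sham. Its bearing on the FPKM of other genes was not tested. The 3 vagotomy libraries stood apart on the first principal component, at 45.2 to 87.1, against -54.2 to -7.48 for resection and -50.2 to -17.8 for sham. Of 10 ventricular cardiomyocyte markers 10 were listed, but Myh6 and Actc1 were listed at 0 in every vagotomy library and are among 15 genes with failed estimates, none of them one of the 8. FPKM does not give the reads behind a value, so sequencing depth is unknown. In whole tissue, fewer cells of a type and less RNA per cell cannot be told apart.

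Dnmt3a had the highest mean of the 8 genes in each group, and Dnmt3b the lowest. Uhrf1 held the fifth place after resection with vagotomy and after resection, and the third in sham. After resection with vagotomy the order was Dnmt3a, Dnmt1, Uhrf2, Tet3, Uhrf1, Tet1, Tet2 and Dnmt3b, and the neighbours Dnmt1 and Uhrf2, Uhrf2 and Tet3, and Tet1 and Tet2 overlapped in their libraries. After resection the order was Dnmt3a, Uhrf2, Tet3, Dnmt1, Uhrf1, Tet2, Tet1 and Dnmt3b, and each neighbouring pair overlapped except Tet1 and Dnmt3b. In sham the order was Dnmt3a, Uhrf2, Uhrf1, Dnmt1, Tet3, Tet2, Tet1 and Dnmt3b, and Dnmt3a was above Uhrf2, Tet3 above Tet2 and Tet1 above Dnmt3b in every library.

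**Figure D1:**
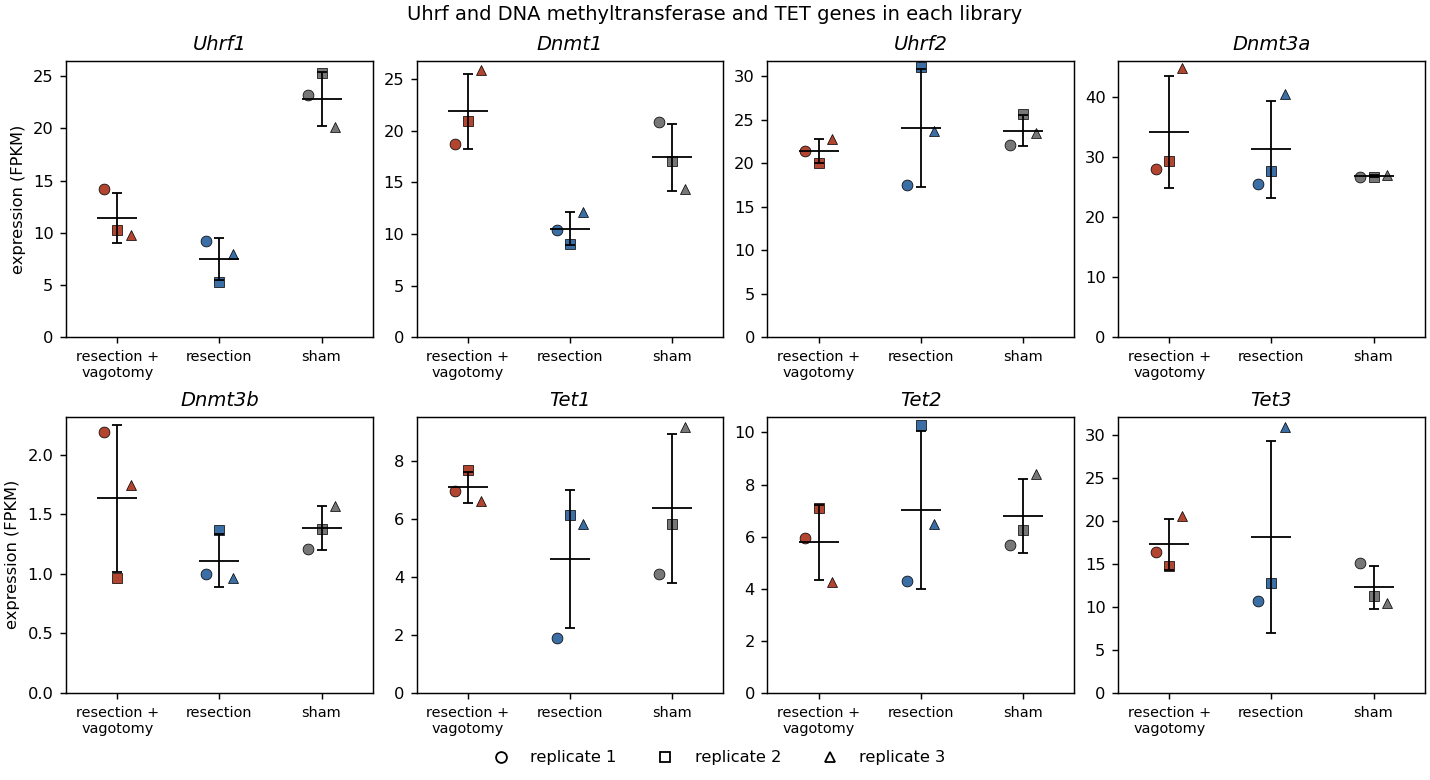
Expression of the 8 genes in FPKM (vertical axes, each starting at 0) in the 3 libraries of resection with vagotomy, resection and sham. Points are libraries, marked by replicate number, and lines and bars are the mean and SD. Uhrf1 lies between 5.31 and 14.2 FPKM in the libraries of resected hearts and between 20.1 and 25.3 FPKM in sham, while Dnmt1 is lowest after resection alone.

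Uhrf1 (ENSMUSG00000001228, chromosome 17, 56303321 to 56323486, plus strand, GRCm38) encodes the reader and ubiquitin ligase that guides maintenance methylation. Its level was 14.2, 10.2 and 9.80 FPKM after resection with vagotomy, 9.24, 5.31 and 7.96 FPKM after resection and 23.1, 25.3 and 20.1 FPKM in sham. The 3 groups did not overlap: sham was highest, resection lowest, and the vagotomy libraries lay between them. The means were 11.4 ± 2.42 FPKM after resection with vagotomy, 7.50 ± 2.00 FPKM after resection and 22.8 ± 2.59 FPKM in sham (SD, n = 3 each). Against sham, Uhrf1 fell after resection with vagotomy to 0.499 of the sham mean (log2 difference -0.95 on the log2(FPKM + 1) scale, SE 0.26, 95% interval -1.53 to -0.38, limma adjusted p = 0.0448 with Benjamini-Hochberg adjustment over 13249 genes). Against resection alone the vagotomy mean was 1.52 times as high, but this did not pass (log2 difference 0.56, SE 0.26, 95% interval -0.02 to 1.13, limma adjusted p = 0.218). After resection alone the mean was 0.328 of the sham mean, a log2 difference of -1.51. The fall against sham did not pass without sham replicates 1, 2 or 3 (limma adjusted p = 0.0753, 0.179 and 0.120), resection replicate 3 (0.0616), or vagotomy replicates 1, 2 or 3 (0.0576, 0.110 and 0.109).

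Dnmt1 (ENSMUSG00000004099, chromosome 9, 20907206 to 20959888, minus strand) encodes the enzyme that methylates the new strand. Its level was 18.8, 21.0 and 25.9 FPKM after resection with vagotomy, 10.4, 9.03 and 12.2 FPKM after resection and 20.8, 17.1 and 14.4 FPKM in sham. Every vagotomy library was above every resection library and overlapped sham, and every resection library was below every sham library. The means were 21.9 ± 3.65 FPKM after resection with vagotomy, 10.5 ± 1.57 FPKM after resection and 17.4 ± 3.23 FPKM in sham. The vagotomy mean was 2.08 times the resection mean (log2 difference 0.99, SE 0.24, 95% interval 0.45 to 1.52), which just missed the threshold (limma adjusted p = 0.0529). With the replicate number as a block the same difference passed, at a limma adjusted p of 0.0388, and the authors' deposited table gave a Cuffdiff q-value of 0.000995 for it. Without resection replicate 2 the limma adjusted p was 0.173. Against sham the vagotomy libraries differed by 0.32 on the log2 scale (95% interval -0.22 to 0.85, limma adjusted p = 0.408), and the difference of resection from sham was -0.67.

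Uhrf2 (ENSMUSG00000024817, chromosome 19, 30030513 to 30093722, plus strand) encodes the paralogue of UHRF1, which binds hydroxymethylated DNA and is not known to replace UHRF1 in maintenance. It was listed at 21.5, 20.0 and 22.8 FPKM after resection with vagotomy, 17.5, 31.1 and 23.7 FPKM after resection and 22.1, 25.7 and 23.5 FPKM in sham. The 3 groups overlapped, and the widest spread was within resection, between its replicates 1 and 2. The log2 difference was -0.13 for vagotomy against resection (95% interval -0.68 to 0.43, limma adjusted p = 0.801) and -0.14 against sham (95% interval -0.70 to 0.41, limma adjusted p = 0.741).

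The levels of the maintenance pair were also compared within each library. The Dnmt1 level divided by the Uhrf1 level, both in FPKM, was 1.32, 2.05 and 2.64 after resection with vagotomy, 1.12, 1.70 and 1.53 after resection and 0.899, 0.676 and 0.716 in sham. Every sham library was below 1 and every library of a resected heart above it, and the vagotomy and resection libraries overlapped. The Uhrf2 level was 1.51, 1.96 and 2.32 times the Uhrf1 level after resection with vagotomy, 1.89, 5.85 and 2.97 times after resection and 0.954, 1.02 and 1.17 times in sham. Both ratios divide by Uhrf1, which was chosen because it was lower after resection than in sham. Their difference between resection and sham follows in part from that choice, and the vagotomy contrast shares the sham libraries. Across the 9 libraries Uhrf1 and Dnmt1 correlated with r = 0.484 on the log2 scale, and with r = 0.106 after each group mean was removed.

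Dnmt3a (ENSMUSG00000020661, chromosome 12, 3806007 to 3914443, plus strand), a de novo methyltransferase of differentiated tissue, stood at 28.0, 29.4 and 44.8 FPKM after resection with vagotomy, 25.5, 27.7 and 40.5 FPKM after resection and 26.7, 26.6 and 27.0 FPKM in sham. The sham libraries were nearly level, while replicate 3 was the high library in both resected groups. Every vagotomy library was above every sham library, by little in replicate 1, and the log2 difference was 0.30 (95% interval -0.29 to 0.90, limma adjusted p = 0.481). Against resection it was 0.12 (95% interval -0.48 to 0.72, limma adjusted p = 0.828), and this value was -0.09 without vagotomy replicate 3 and -0.01 without resection replicate 1.

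Dnmt3b (ENSMUSG00000027478, chromosome 2, 153648690 to 153687730, plus strand), the de novo methyltransferase of the early embryo, was close to the filter. It stood at 2.19, 0.969 and 1.74 FPKM after resection with vagotomy, 0.995, 1.37 and 0.968 FPKM after resection and 1.21, 1.38 and 1.57 FPKM in sham. The groups overlapped, and vagotomy replicates 1 and 2 marked nearly the whole range. The log2 difference, which this scale understates at such levels, was 0.30 for vagotomy against resection (95% interval -0.30 to 0.90, limma adjusted p = 0.538) and 0.12 against sham (95% interval -0.48 to 0.72, limma adjusted p = 0.806).

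Among the dioxygenases, Tet3 (ENSMUSG00000034832, chromosome 6, 83362373 to 83441678, minus strand) had the highest mean in each group. It stood at 16.4, 14.8 and 20.5 FPKM after resection with vagotomy, 10.7, 12.8 and 30.9 FPKM after resection and 15.1, 11.2 and 10.5 FPKM in sham. Resection replicate 3 was the highest of the 9 libraries, as it was second for Dnmt3a, and the groups overlapped. The log2 difference was 0.07 for vagotomy against resection (95% interval -0.73 to 0.87, limma adjusted p = 0.932) and 0.46 against sham (95% interval -0.34 to 1.27, limma adjusted p = 0.417).

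Tet1 (ENSMUSG00000047146, chromosome 10, 62804570 to 62899118, minus strand), whose product carries a CpG-binding CXXC domain, stood at 6.97, 7.70 and 6.64 FPKM after resection with vagotomy, 1.88, 6.14 and 5.85 FPKM after resection and 4.10, 5.83 and 9.17 FPKM in sham. Every vagotomy library was above every resection library, with resection replicate 1 far below the rest, and sham overlapped both groups. The log2 difference was 0.64 for vagotomy against resection (95% interval -0.20 to 1.47, limma adjusted p = 0.326) and 0.19 against sham (95% interval -0.64 to 1.03, limma adjusted p = 0.769). Tet2 (ENSMUSG00000040943, chromosome 3, 133463679 to 133544390, minus strand), whose product lacks that domain, stood at 5.97, 7.11 and 4.25 FPKM after resection with vagotomy, 4.29, 10.3 and 6.48 FPKM after resection and 5.69, 6.26 and 8.39 FPKM in sham. Its groups overlapped, with a log2 difference of -0.20 for vagotomy against resection (95% interval -0.89 to 0.50, limma adjusted p = 0.744) and -0.21 against sham (95% interval -0.90 to 0.49, limma adjusted p = 0.699). The 3 TET levels summed to 29.4, 29.6 and 31.4 FPKM after resection with vagotomy, 16.8, 29.2 and 43.2 FPKM after resection and 24.9, 23.3 and 28.0 FPKM in sham. The sum was steady among the vagotomy libraries and widest among the resection libraries, whose range took in every library of the other groups.

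Counted together, 0 of the 8 genes passed in vagotomy against resection, where limma called 3.52% of 13249 genes (466, and 3212 at an unadjusted p under 0.05). With the replicate block 1 of 8 passed, Dnmt1, and 1277 genes in all. The libraries did not overlap for Uhrf1, Dnmt1 and Tet1, each above resection, while 26.2% of tested genes did not overlap in that contrast and 14.0% did so with vagotomy above. In vagotomy against sham 1 of 8 passed, Uhrf1, where limma called 10.1% of tested genes (1334, of which 770 rose and 564, or 4.26%, fell), and Uhrf1 and Dnmt3a did not overlap, against 36.7% of tested genes. In resection against sham limma called 0.294% of tested genes (39), and Uhrf1 and Dnmt1 did not overlap, against 10.8% of tested genes and 4.45% with resection below. Uhrf1 was chosen by its fall in this contrast, so its separation there cannot be weighed against these shares. Dnmt1 was the 1 gene of the 8 past a q-value of 0.05 in the authors' deposited table of vagotomy against resection, which called 17.1% of 14083 genes. Reads of small or antisense genes inside the loci of Dnmt1, Dnmt3a, Dnmt3b, Tet1 and Tet3 could not be told apart from theirs, since the sources used here do not state a strand setting. None of those overlapping genes is in the matrix.

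**Figure D2:**
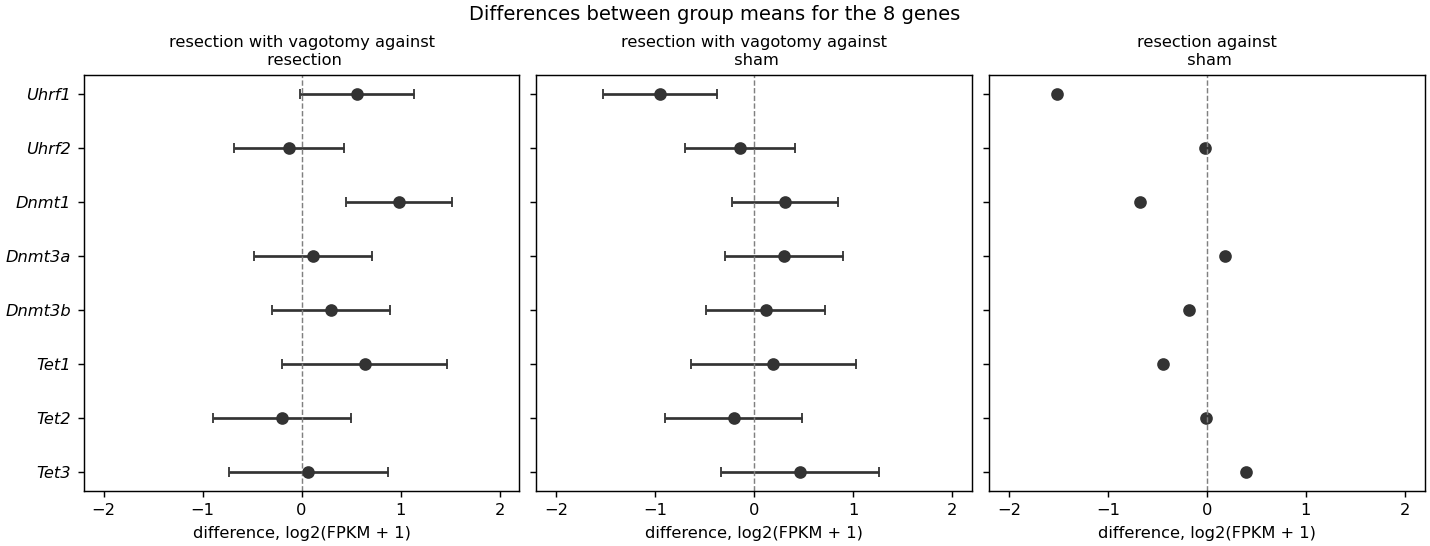
Differences between group means of log2(FPKM + 1) for the 8 genes (horizontal axes), in resection with vagotomy against resection, resection with vagotomy against sham, and resection against sham. Points are the fitted differences and bars their 95% intervals, left out for resection against sham, which is a description. The intervals of Dnmt1 in the left panel (0.45 to 1.52) and of Uhrf1 in the middle panel (-1.53 to -0.38) do not reach 0.

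Genes of S phase were read beside Uhrf1. Of 31 tested genes of a DNA replication list (helicase, primase, polymerase, clamp loader and nucleotide supply), 0 passed in resection against sham, but 31 of 31 had a negative difference, with a median of -0.76 on the log2 scale against -0.01 for all tested genes. Over the alternatives, whose filters can change the number tested, 25 to 31 genes were negative and the median was -0.82 to -0.49. In that contrast 1 gene fell with a pseudocount of 0.1, with a mean of at least 5 FPKM or with quantile scaling, and 4 fell with GC and length trends removed (2 with the replicate block as well). The ribonucleotide reductase gene Rrm2 was at 18.7 ± 0.834 FPKM after resection and 60.01 ± 15.8 FPKM in sham (limma adjusted p = 0.0547), and the helicase gene Mcm5 at 6.38 ± 0.951 FPKM after resection and 14.2 ± 2.44 FPKM in sham (limma adjusted p = 0.142). In vagotomy against sham 8 fell and 1 rose, with a median of -0.58 against 0.03 for all tested genes. Rrm2 fell to 15.9 ± 4.26 FPKM after resection with vagotomy (limma adjusted p = 0.00836), Rrm1, whose product pairs with that of Rrm2, to 17.1 ± 2.56 FPKM, against 50.5 ± 11.5 FPKM in sham (limma adjusted p = 0.0144), and the clamp loader gene Rfc4 to 1.99 ± 1.53 FPKM, against 16.8 ± 5.51 FPKM in sham (limma adjusted p = 0.00883). The gene that rose was Gins2, a subunit of the helicase complex (log2 difference 1.32, limma adjusted p = 0.0325). The count of genes that fell was 0 without sham replicate 2, 1 without sham replicate 3, 5 without each single vagotomy replicate, and 12 with the replicate block.

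In vagotomy against resection the replication list had a median of 0.08 against 0.02 for all tested genes, with 1 gene up and 1 down. Gins2 rose to 27.8 ± 10.4 FPKM after resection with vagotomy, against 8.27 ± 1.57 FPKM after resection (limma adjusted p = 0.0344), and Rfc4 fell to 1.99 ± 1.53 FPKM, against 9.39 ± 2.68 FPKM (limma adjusted p = 0.0385). With the replicate block 3 rose (Gins1, Gins2 and Mcm7) and 1 fell (Rfc4). A list score, the mean log2(FPKM + 1) of the 31 genes minus its sham mean, was -0.61, -0.65 and -0.67 after resection with vagotomy and -0.55, -0.92 and -0.70 after resection, with sham between -0.09 and 0.14. Over the 9 libraries Uhrf1 correlated with this score at r = 0.95, and at 0.857 after group means were removed. For Dnmt1 these values were 0.284 and 0.217, and for the other 6 genes r with the score was between -0.44 and 0.04. After group means were removed, r was -0.68 for Uhrf2, -0.65 for Tet1 and -0.73 for Tet2. For Dnmt3a, Dnmt3b and Tet3 it was then between -0.26 and -0.08. The libraries share their groups, so these are descriptions with no test.

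**Figure D3:**
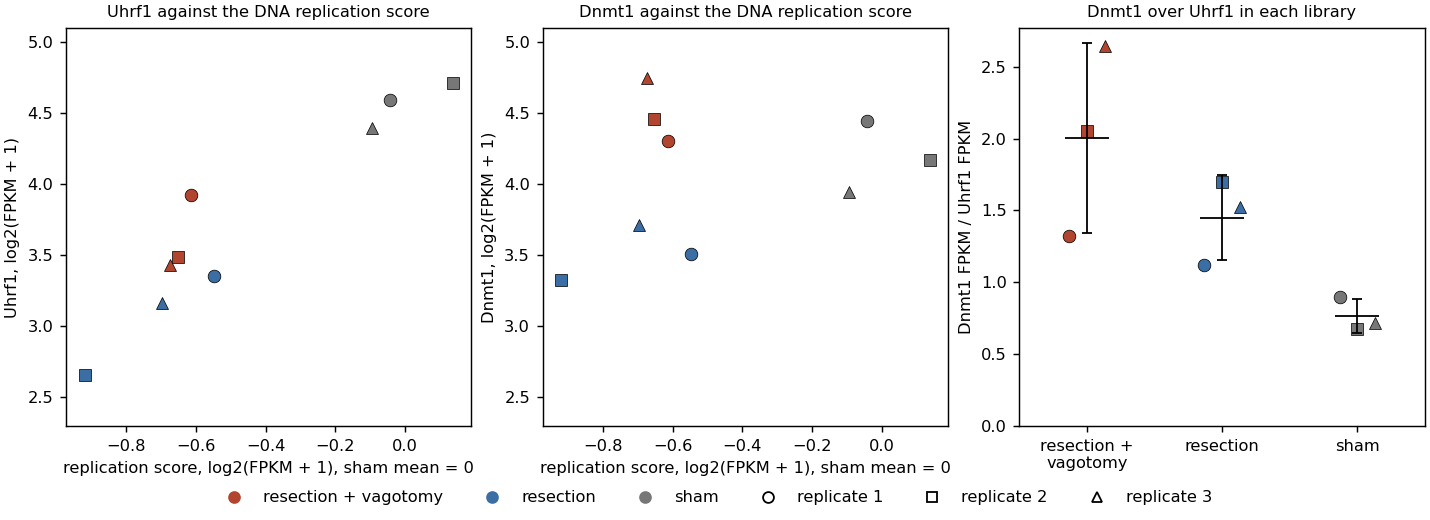
Left and middle, log2(FPKM + 1) of Uhrf1 and Dnmt1 (vertical axes) against the DNA replication score of each library (horizontal axes, sham mean at 0). Right, the Dnmt1 level over the Uhrf1 level in FPKM in each library, with mean and SD. Uhrf1 and the score correlate at r = 0.95. The vagotomy and resection libraries overlap in their scores, but they do not overlap in Dnmt1 or in Uhrf1.

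Among 14 tested partners of maintenance methylation, 1 rose in vagotomy against resection, with a median of 0.22. This was Ehmt1, which encodes the histone H3 lysine methyltransferase GLP, at 93.8 ± 24.5 FPKM after resection with vagotomy and 25.1 ± 15.1 FPKM after resection (limma adjusted p = 0.0277). In vagotomy against sham Ehmt1 rose (19.9 ± 2.06 FPKM in sham, limma adjusted p = 0.0119) and Hells fell, with a median of -0.13 for the list. Hells, a chromatin remodeller needed for methylation of repeats, stood at 4.34 ± 1.72 FPKM after resection with vagotomy and 14.9 ± 5.79 FPKM in sham (limma adjusted p = 0.0474). In resection against sham 0 of 14 passed, with a median of -0.44, and the replication clamp gene Pcna stood at 15.0 ± 3.09 FPKM after resection and 25.8 ± 2.32 FPKM in sham (limma adjusted p = 0.503).

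Of 12 tested partners of de novo methylation 0 passed in any contrast by limma over the 9 libraries, with medians of -0.14 for vagotomy against resection, -0.20 for vagotomy against sham and -0.11 for resection against sham. Suz12, a subunit of the Polycomb repressive complex that methylates histone H3, stood at 11.7 ± 2.2 FPKM after resection with vagotomy and 34.0 ± 13.1 FPKM in sham (limma adjusted p = 0.0586). In vagotomy against sham 2 genes of this list fell with the replicate block, and 1 fell with a mean of at least 5 FPKM, with the 6 libraries compared, with GC and length trends removed, and without sham replicate 1, resection replicate 1 or resection replicate 2. Of 18 tested genes of oxidised base removal and TET partners 0 passed in any contrast by limma over the 9 libraries. With the replicate block Ung rose and Cxxc5 fell in vagotomy against resection (limma adjusted p = 0.0293 and 0.0450), and 1 gene rose against sham. With GC and length trends removed 1 rose and 2 fell in each vagotomy contrast, and without sham replicate 1 or resection replicate 1 there was 1 that rose against sham. Ung, the uracil DNA glycosylase, stood at 9.43 ± 2.68 FPKM after resection with vagotomy and 4.04 ± 1.53 FPKM after resection (limma adjusted p = 0.0891), and sham was at 10.4 ± 3.23 FPKM. Cxxc5, a CXXC protein linked to TET2, stood at 11.02 ± 3.76 FPKM after resection with vagotomy and 20.8 ± 5.73 FPKM after resection (limma adjusted p = 0.116).

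Of 10 tested readers of methylated or free CpG sites 1 rose in both vagotomy contrasts. It was Mbd1, a methyl-CpG binding protein, at 21.4 ± 4.64 FPKM after resection with vagotomy, against 7.64 ± 0.901 FPKM after resection (limma adjusted p = 0.0235) and 7.83 ± 0.681 FPKM in sham (limma adjusted p = 0.0129). The medians of this list and of 16 tested genes of the methyl donor and folate cycle lay between -0.08 and 0.08 in the 3 contrasts.

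Genes known to be silenced or marked by DNA methylation were read as well, though methylation itself was not measured. Of 23 tested imprinted genes 1 rose in vagotomy against resection, and 1 rose and 1 fell against sham. Meg3, a maternally expressed long RNA, stood at 196 ± 14.3 FPKM after resection with vagotomy, against 68.2 ± 29.5 FPKM after resection (limma adjusted p = 0.0499) and 75.9 ± 35.5 FPKM in sham (limma adjusted p = 0.0409). Sgce, a paternally expressed sarcoglycan gene, fell to 4.22 ± 2.28 FPKM after resection with vagotomy, against 10.8 ± 2.14 FPKM in sham (limma adjusted p = 0.0374). With the replicate block Dlk1, a paternally expressed Notch-like ligand gene, also rose and Sgce also fell against resection (limma adjusted p = 0.0219 and 0.0376). Of 18 germline genes silenced by promoter methylation 5 were in the matrix and 3 were tested, and 0 passed in any contrast. Every gene of the replication and methylation lists named here as risen or fallen lost its call without sham replicate 2 (limma adjusted p from 0.0508 for Rfc4 to 0.177 for Hells, both against sham), and most of them also without other single libraries.

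**Figure D4:**
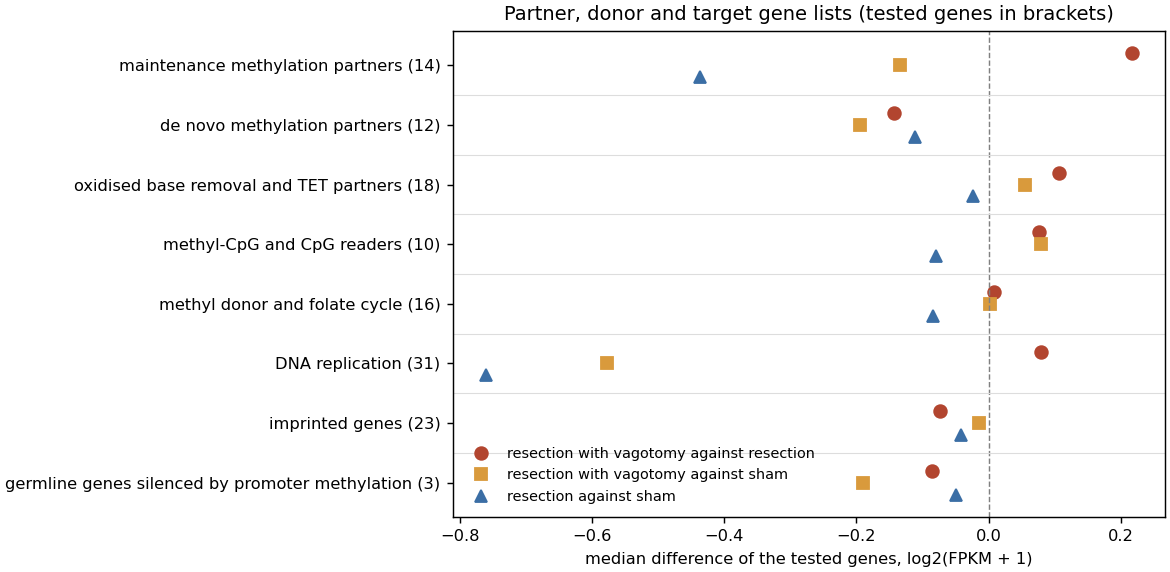
Median difference in log2(FPKM + 1) (horizontal axis) over the tested genes of 8 lists, in resection with vagotomy against resection (circles), resection with vagotomy against sham (squares) and resection against sham (triangles). The DNA replication list lies at -0.76 and -0.58 in the contrasts with sham and at 0.08 in vagotomy against resection, and in the contrasts with sham the other lists lie between -0.44 and 0.08.

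Markers of other cells were read beside the 8 genes. Of the 15 macrophage and monocyte markers tested, 7 rose in vagotomy against sham with 0 down, 3 rose in resection against sham and 0 passed in vagotomy against resection. Their summed level ranged over 238 to 296 FPKM after resection with vagotomy, 191 to 329 FPKM after resection and 62.0 to 86.6 FPKM in sham, and none was listed at 0 throughout a group. Of 6 tested neutrophil markers 4 rose in vagotomy against sham, 1 rose in resection against sham, and 1, S100a8, fell in vagotomy against resection. In that last contrast 3 of the 6 had a positive and 3 a negative difference, with a median of 0.11. S100a9 stood at 140 ± 82.6 FPKM after resection with vagotomy and 45.4 ± 19.5 FPKM after resection (limma adjusted p = 0.119). With the replicate block 1 marker rose and 1 fell there. Of 10 ventricular cardiomyocyte markers 1 rose in both vagotomy contrasts, the myosin light chain gene Myl3, at 7663 ± 2616 FPKM after resection with vagotomy, against 898 ± 507 FPKM after resection (limma adjusted p = 0.0166) and 1211 ± 441 FPKM in sham (limma adjusted p = 0.0144). The 2 called lower were Myh6 and Actc1, whose estimates failed. Of the 10, 4 had a positive difference in vagotomy against sham, with a median of -0.05. That count and median take in the failed genes Myh6 and Actc1 as negative. In resection against sham 0 of the 10 had a positive difference, with a median of -0.20 and 0 past the threshold. The sums over all 10 were 18311 to 41210 FPKM after resection with vagotomy, 15195 to 25345 FPKM after resection and 22376 to 25185 FPKM in sham. Myh6 and Actc1 add 0 to each vagotomy sum, so these sums cannot be compared between vagotomy and the other groups. The mean log2(FPKM + 1) of the 8 others, minus its sham mean, was 0.34, 0.41 and 1.02 after resection with vagotomy. After resection it was -0.41, -0.45 and 0.07, and in sham it lay between -0.04 and 0.03. Of 6 epicardial markers 0 passed over the 9 libraries, but 6 had a negative difference in vagotomy against resection (median -0.52) and 5 in vagotomy against sham (median -0.50), and with the replicate block 1 fell against resection. Of 8 endothelial markers 1 fell in both vagotomy contrasts, the sialomucin gene Emcn, at 8.97 ± 1.52 FPKM after resection with vagotomy, against 32.3 ± 8.53 FPKM after resection (limma adjusted p = 0.0169) and 28.8 ± 5.34 FPKM in sham (limma adjusted p = 0.0119). Of the 8, 3 had a positive difference against resection (median -0.05) and 5 against sham (median 0.18). With the replicate block, or with GC and length trends removed, 1 endothelial marker rose against sham. Of 6 tested erythroid markers 6 had a positive difference in resection against sham (median 0.79, 0 past the threshold), and 1, the globin gene Hba-a2, whose reads are uncertain beside its near-identical copy Hba-a1, rose in vagotomy against sham (limma adjusted p = 0.0313). Of 9 fibroblast and 5 atrial markers 0 passed in any contrast in the main fit. With the replicate block 1 fibroblast marker rose and 2 fell in vagotomy against sham. There 1 fell with a pseudocount of 0.1, a mean of at least 5 FPKM, either scaling or no trend, and without vagotomy replicate 3. With GC and length trends removed 1 fibroblast marker fell in both vagotomy contrasts, and with the block as well 2 fell against sham and 1 against resection. The calls of Myl3 and Emcn were lost against resection without resection replicate 2 or vagotomy replicate 3 and against sham without sham replicate 2 or 3, and those of Hba-a2 against sham and S100a8 against resection without most single libraries compared. With sham replicate 2 left out 1 macrophage marker rose in vagotomy against sham, with sham replicate 3 left out 3, and with vagotomy replicate 1 or 2 left out 4. In resection against sham 0 to 2 macrophage markers rose when a library was left out, with 0 for sham replicates 1 and 2 and resection replicates 1 and 3. Of the neutrophil markers 1 rose in vagotomy against sham when sham replicate 2 or 3 was left out. In resection against sham S100a8 was the 1 that rose, and it lost its call without sham replicate 2 or resection replicate 1. The part of these cells in the levels of the 8 genes was not tested.

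The genes most like each of the 8 were taken by Pearson r over the 9 libraries on the log2(FPKM + 1) scale. Gene models, small RNA genes, mitochondrially encoded genes and genes whose locus overlaps that of the gene compared were left out. For Uhrf1 they were Apln (0.962), Neurl1b (0.961), Mcm5 (0.950), Slc1a4 (0.949), Cdk2 (0.914), Ckap2 (0.898), Ncapd2 (0.896), Mlf1ip (0.896), Rimkla (0.893) and Kif23 (0.886). Mcm5 belongs to the replication list, and Cdk2, Ckap2, Ncapd2 and Kif23 encode proteins of the cell cycle or of mitosis. The mean of Apln, the gene of the peptide apelin, was 2.5 FPKM after resection with vagotomy, 1.79 FPKM after resection and 4.75 FPKM in sham. For Dnmt1 the closest were Cabin1 (0.942), Tuba4a (0.940) and Rad54l (0.937), none of them among the 10 of Uhrf1. The mean of Rad54l, a helicase of recombination repair, was 6.002 FPKM after resection with vagotomy, 3.45 FPKM after resection and 5.45 FPKM in sham. The closest to Dnmt3a was Cmtm6 (0.977), to Dnmt3b Ptpdc1 (0.922), to Uhrf2 Kcnj2 (0.949), to Tet1 Lcor (0.978), to Tet2 Ankrd46 (0.969) and to Tet3 Slc31a2 (0.940). Within the 8, r over the 9 libraries was highest for Dnmt3a and Tet3 (r = 0.839, and 0.804 after group means were removed), followed by Uhrf2 and Tet2 (r = 0.702, and 0.675). The order was another once group means were removed, with Tet1 and Tet2 highest at 0.819 and Uhrf2 and Tet1 at 0.725. The highest of the values left from 13249 genes over 9 libraries are high by choice, and no test was made.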

How the data were processed

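RNA-seq libraries of the lower ventricular apex of CD-1 pups (3 after apical resection with left vagotomy, 3 after apical resection, 3 after sham surgery) were read from the deposited tables. The deposited matrix holds FPKM raised by a pseudocount of 1 that the authors added, and this 1 was subtracted. The submitters' processing notes name TopHat2 2.0.9, Cufflinks 2.1.1, Cuffdiff 2.1.1 and GRCm38. The authors' deposited Cuffdiff tables hold each group's FPKM with p-values and q-values, and those of resection against sham were not used for the 8 genes. The depth per library is unknown, so no count test was run and no counting interval can be given.

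The genes whose mean over 9 libraries reached 1 FPKM were tested on log2(FPKM + 1) with limma 3.58.1 (R 4.3.3), 1 mean per group, a mean-variance trend, two-sided, and Benjamini-Hochberg adjustment over 13249 genes at 0.05. An exact permutation test of 3 against 3 cannot go below 0.1. The procedure was tested on simulated data. Only the spread between libraries, which may be technical, enters these p-values. The 8 genes and all 16 lists (8 of them cell types) were chosen with earlier results of these data known. Named are the 8 genes, up to 3 genes of each list with the smallest p in each contrast and every gene past the threshold where 3 or fewer are, and the genes of highest r. Gins2 against sham and Gins1 were named after their values were seen. Genes of failed estimates were left out of list scores. The result of 1 list gene is not reported here.

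Same-numbered libraries of resection and of resection with vagotomy deviated together from their group means (r = 0.117 to 0.199 in 3 of 3 pairs), so the replicate block is given beside results it changes in that contrast. The number is that of the sample titles, and the labels do not say what it stands for. In the deposited library names, replicate 3 of sham and of resection carries a different number, so its pairing is uncertain. Alternatives were pseudocounts of 0.1 and 5, no filter or a minimum mean of 5 FPKM, scaling by upper quartile or by quantiles, the 6 libraries compared, no trend, the replicate block, leaving out each library, and, chosen after seeing the data, removal of each library's trend with GC content and length (known for 13118 of 13249 genes, 99.0%) without and with the block. Library weights were tried and left out because their estimate did not converge.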

Additional observations from a re-analysis of the deposited data

How the results depend on the processing

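Over 20 alternatives the difference of Uhrf1 stayed negative in vagotomy against sham (-1.21 to -0.77) and positive in vagotomy against resection (0.35 to 0.71), and that of Dnmt1 positive in vagotomy against resection (0.73 to 1.09). The count of the 8 genes past the threshold in vagotomy against resection was 1 (Dnmt1) in place of 0 with a mean of at least 5 FPKM (limma adjusted p = 0.0391), upper-quartile scaling (0.0486), quantile scaling (0.0486), the replicate block (0.0388), and after removal of each library's GC and length trend without (0.0227) and with the replicate block (0.0314), and 0 in every fit that left out a library (adjusted p from 0.0586 to 0.173). In vagotomy against sham it was 0 to 1 when a library was left out, and Uhrf1 had an adjusted p of 0.00732 with the trend removed. In resection against sham the Uhrf1 difference was -1.16 with a pseudocount of 5, a smaller value by the construction of the scale. Reversed signs were among values that never passed. When a library was left out, vagotomy against resection gave Uhrf2 from -0.33 (without resection replicate 1) to 0.0694 (without resection replicate 2), Tet2 from -0.46 to 0.0845 (the same libraries), Dnmt3a from -0.0906 (without vagotomy replicate 3) to 0.31 (without resection replicate 3) and Tet3 from -0.21 (without resection replicate 1) to 0.51 (without resection replicate 3). Vagotomy against sham gave Dnmt3b from -0.0346 to 0.31 (without vagotomy replicates 1 and 2) and Tet1 from -0.0433 to 0.45 (without sham replicates 1 and 3). Once GC and length trends were removed, with or without the block, Dnmt3a was -0.13 and Tet3 -0.28 against resection and Dnmt3b -0.11 against sham.

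The 466 genes called in vagotomy against resection became 29 with the 6 libraries compared, 1277 with the replicate block, 1439 and 1602 with the trend removed without and with the block, and 42 to 591 when a library was left out. The 1334 in vagotomy against sham became 2413, 2353 and 2522 with the block, the trend removed and both, and 100 to 1701 when a library was left out. The 39 in resection against sham became 66 and 23 with pseudocounts of 0.1 and 5, 13 with 6 libraries, 94 and 72 with the trend removed without and with the block, and 11 to 59 when a library was left out. Same-numbered libraries had r of deviations from 0.0129 to 0.498 between sham and resection and from -0.0193 to 0.186 between sham and vagotomy. These uneven values do not settle whether the numbers pair with sham. The block changed no call of the 8 genes against sham. Dnmt3b has no value with a mean of at least 5 FPKM. The cause of these shifts was not tested. With 3 libraries a group and unknown depth, differences inside the printed intervals cannot be seen, and values near 1 FPKM are the least certain.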
